A study of Homo sapiens with 191 samples.

Results

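The 84 cytosolic ribosomal protein genes were looked up in the accessible chromatin of GM12878, a human lymphoblastoid line made by transforming B cells with Epstein-Barr virus. They were taken by name: every protein-coding gene on chromosomes 1 to 22 and X whose symbol is RPSA or is formed as RPL, RPS or RPLP with a number, which gave 84 of 20090 protein-coding symbols in GENCODE 44 mapped to hg19. Of these, 43 encode large subunit proteins, 31 small subunit proteins and 3 the acidic stalk proteins, and 7 are paralog-like genes (RPL3L, RPL7L1, RPL10L, RPL22L1, RPL26L1, RPL39L and RPS27L). The name rule uses no measured value, but it was chosen with earlier results of these data known.

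The assay was ATAC-seq, in which a transposase inserts sequencing adapters into accessible DNA. Cells were fixed, permeabilized, transposed in bulk without antibody staining and sorted singly into wells, giving 96 libraries on plate 1 and 95 on plate 2, all untreated GM12878 in 1 group. A single list of 50000 regions of 501 bp, called by the authors after pooling the cells, was analysed. It holds neither values of single cells nor replicates, and there is no other group to compare. No test was run. The intervals given treat the genes as independent draws and do not cover variation between cells or libraries. Each region carries a score, the −log10 of its q-value, which ran between 16.0 and 4437.64 in the list. A score reflects both how accessible a region is and how many fragments were pooled, and the depth is unknown from the list. In the check of the cell label, 8 of 10 B cell markers had a promoter region, among them PAX5, EBF1 and MS4A1, while CD22 was among those that did not. Of the other lineages, 1 of 8 T cell markers, 2 of 6 myeloid markers and 1 of 5 erythroid markers had one.

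Ribosomal proteins assemble with ribosomal RNA in the nucleolus into the small subunit, which reads the messenger RNA, and the large subunit, which joins amino acids. Their genes are short, are transcribed at a high rate in nearly all dividing cells, and often carry small nucleolar RNA (snoRNA) genes in their introns. Their messenger RNAs begin with a C followed by an unbroken run of pyrimidines, the 5′ terminal oligopyrimidine tract, through which mTOR signalling and LARP1 control their translation.

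That run was read from the genome at the canonical start of each gene, and 68 of the 84 genes (81.0%) had a C followed by at least 4 C or T beginning within 5 bases of the start, beside 21.8% of all 19812 protein-coding genes with a canonical start. In 59 genes the run began at the annotated start base itself, as it did in 4.60% of all genes. Among genes with a run, its median length was 8 bases at ribosomal protein genes and 5 over all genes, where 5 is the shortest run counted. The sequences below show the start of genes with high, middle and low scores and of genes without a promoter region. They are not in strict order of score. Each is 30 bases of GRCh37, 10 before the start and 20 from the start on, 5′ to 3′ along the gene, with the run in capitals.
RPS12 (chr6:133135698-133135727, plus strand): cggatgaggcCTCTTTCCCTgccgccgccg
RPS3A (chr4:152020770-152020799, plus strand): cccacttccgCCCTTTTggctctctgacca
RPSA (chr3:39448201-39448230, plus strand): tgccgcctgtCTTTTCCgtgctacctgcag
RPS29 (chr14:50053079-50053108, minus strand): gggccagcttCTTCCTTTTacctcgttgca
RPS23 (chr5:81574154-81574183, minus strand): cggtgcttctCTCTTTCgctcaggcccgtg
RPS13 (chr11:17099195-17099224, minus strand): ctctcgctctCCTTTCgttgcctgatcgcc
RPL15 (chr3:23958613-23958642, plus strand): aaggcattgtgggagtacagctctttcctt
RPL22L1 (chr3:170587965-170587994, minus strand): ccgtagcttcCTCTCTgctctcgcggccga
RPS27L (chr15:63449657-63449686, minus strand): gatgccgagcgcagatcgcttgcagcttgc
RPL11 (chr1:24018286-24018315, plus strand): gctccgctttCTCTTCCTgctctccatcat
RPL13A (chr19:49990855-49990884, plus strand): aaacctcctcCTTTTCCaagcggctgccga
RPS21 (chr20:60962149-60962178, plus strand): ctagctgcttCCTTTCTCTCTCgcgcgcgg
RPS18 (chr6:33239842-33239871, plus strand): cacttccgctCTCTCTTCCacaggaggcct
RPL7A (chr9:136215063-136215092, plus strand): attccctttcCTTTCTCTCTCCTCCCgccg
RPS10 (chr6:34393827-34393856, minus strand): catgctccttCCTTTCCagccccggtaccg
RPS15 (chr19:1438385-1438414, plus strand): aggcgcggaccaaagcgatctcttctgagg
RPL10L (chr14:47120965-47120994, minus strand): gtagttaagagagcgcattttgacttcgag
RPL15, whose region was the strongest, had no run within 5 bases of its canonical start but one beginning 10 bases after it, while RPL7A, whose region was the weakest, had one of 16 bases. RPS10 had the run and no promoter region, and RPS15, whose run began 9 bases after the start, and RPL10L had neither by the limit of 5 bases. Among the paralog-like genes 2 of 7 had the run, namely RPL22L1 and RPL26L1. Of the 68 genes with a run, 65 had a promoter region and their median best score was 133.5, and of the 16 without a run 12 had one, with a median of 77.62. Mitochondrial ribosomal protein genes, whose products work in the mitochondrial ribosome, had a run in 16 of 78 (20.5%), and ribosome biogenesis factors in 15.4%. The run was more frequent in 7 of 11 translation elongation factors (63.6%), 18 of 40 initiation factors (45.0%) and 8 of 14 RNA polymerase I genes (57.1%). All 4 genes of ribosomal proteins that the name rule leaves out had it. It was thus not particular to the 84 genes.

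Nearly all of these promoters were accessible. A promoter region, meaning a listed region whose centre lay within 1 kb of an annotated transcription start of the gene, was found at 77 of 84 genes (91.7%, exact binomial 95% interval 83.6% to 96.6%), beside 57.2% of all protein-coding genes. The share was 41 of 43 for large subunit genes, 28 of 31 for small subunit genes, 3 of 3 for stalk genes and 5 of 7 for paralog-like genes. Without the paralog-like genes it was 72 of 77 (93.5%). The 4 genes of human ribosomal proteins that the name rule leaves out all had one, among them FAU, which encodes a fusion to a ubiquitin-like domain, RPL36AL, and RACK1, a scaffold protein on the small subunit.

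The scores of these regions spread widely, as did those of all genes. The best score of the 77 genes had a median of 121.7 (quartiles 47.42 and 430.3, 95% interval of the median 82.12 to 195.0), beside 129.6 over all genes with a promoter region (quartiles 49.06 and 334.2). Of the 77 genes, 37 lay above the median of all genes. The scores ran between 16.03 and 1561.26, the highest 97.4 times the lowest, beside 16.03 to 4437.64 over all genes with a promoter region. A score of at least 1000 was reached by 6 genes (7.79%, beside 6.34% of all genes with a promoter region) and a score under 20 was held by 6 genes (7.79%, beside 4.30%). By subset the median was 112.1 for large subunit, 157.3 for small subunit, 218.4 for stalk and 195.0 for paralog-like genes, each range overlapping the others.

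**Figure D1:**
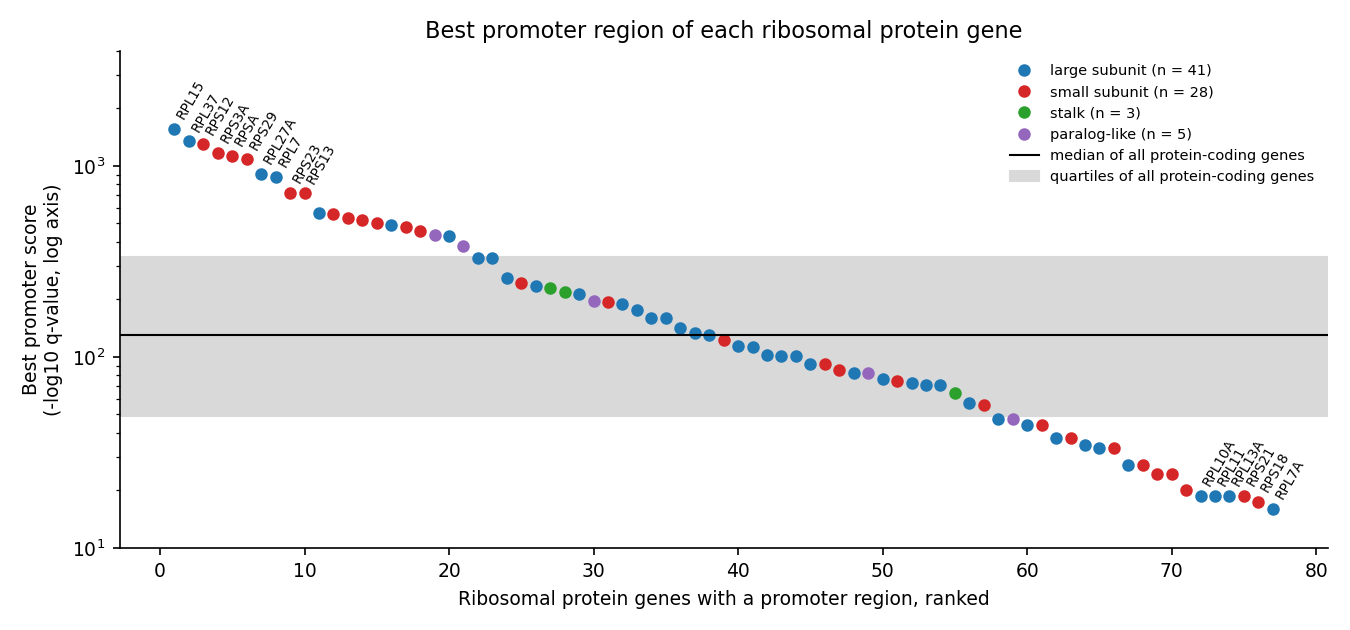
Best promoter score (−log10 q-value, log axis) of the 77 ribosomal protein genes with a promoter region, ranked and coloured by subset, with the median (line) and quartiles (band) of all protein-coding genes with a promoter region. The genes spread on both sides of the band, with RPL15 at 1561.26 and RPL7A at 16.03.

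The strongest region belonged to RPL15, a large subunit protein, with a score of 1561.26 at chr3:23958286-23958786. It ranked 224th in the list of 50000 and lay over an exon, 66 bp downstream of the nearest RPL15 start and at −87 bp relative to the canonical start. The same region covers a start of NKIRAS1, a regulator of NF-kB inhibitors, so the signal cannot be assigned to 1 of these genes. RPL37 of the large subunit followed with 1340.84. The next 4 all encode small subunit proteins: RPS12 scored 1293.39, RPS3A 1163.44, RPSA, also known as a laminin receptor, 1125.10, and RPS29, a zinc-binding protein, 1078.76. RPL27A scored 904.15, RPL7 875.02, RPS23, a protein of the decoding centre, 723.75, and RPS13 716.04. These 10 genes thus took 6 of their number from the small subunit and 4 from the large. RPL15 stood at the 97.6th percentile of all genes with a promoter region and RPS13 at the 89.1st.

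The weakest regions stood at or near the lowest score in the list. RPL7A, at chr9:136214788-136215288, scored 16.03 in a region that also covers a start of MED22, a Mediator subunit. RPS18 scored 17.34, in a region that lay within 1 kb of a start of VPS52 and covered a start of neither gene. RPL10A, RPL11, RPL13A and RPS21 scored 18.68 each. RPL11 binds the 5S ribosomal RNA together with RPL5 and can hold the p53 regulator MDM2, and RPL13A is known for a role in silencing interferon-induced transcripts. RPL5, named here after its value was seen, scored 430.33, so the pair of 5S partners stood far apart. The stalk genes RPLP0, RPLP1 and RPLP2 scored 229.20, 218.41 and 64.33. The paralog-like RPL22L1 scored 435.11, RPL39L 380.65, RPL26L1 194.98, RPS27L, a target of p53, 82.12, and RPL7L1, a factor of ribosomal RNA processing, 47.42.

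The best region sat close to the start. Its centre was a median of 69 bp from the nearest annotated start, beside 87 bp over all genes with a promoter region, and within 100 bp in 50 of 77 genes (64.9%, beside 55.1%). It lay upstream in 55 genes, downstream in 21 and on the start base in RPL39L, a paralog known from testis. The share upstream was 71.4%, beside 70.1% of all genes. The centre fell in an exon of the gene in 29 genes, in an intron in 9 and outside the gene record in 39. Ribosomal protein genes have a median of 8 annotated starts and all genes one of 5, and more starts shorten such a distance. At the canonical start alone the median distance was 90.0 bp, which is 0.756 times that of all genes, against 0.793 times with all starts. By that start the best region lay upstream in 65 genes and downstream in 11, with 84.4% upstream beside 75.3% of all genes.

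The best regions farthest from the nearest annotated start lay 466 bp upstream at RPL4, 355 bp upstream at RPL36, 339 bp downstream at RPL7, 330 bp upstream at RPL28 and 277 bp upstream at RPS19. Relative to the canonical start the region at RPL7 lay at −466 bp, thus upstream. The region at RPL4, with a score of 27.15, covers a start of ZWILCH, a kinetochore protein, but no start of RPL4. At 75 of the 77 genes the best region was the same when only the canonical start was used. At RPL27A it was not: the region of 904.15 lay 6193 bp downstream of the canonical start, by an internal start, and the region at the canonical start scored 497.90. At RPL36 the region of 100.65 lay at −9623 bp relative to the canonical start, by the starts of HSD11B1L and MICOS13, and the region at the canonical start scored 21.43.

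**Figure D2:**
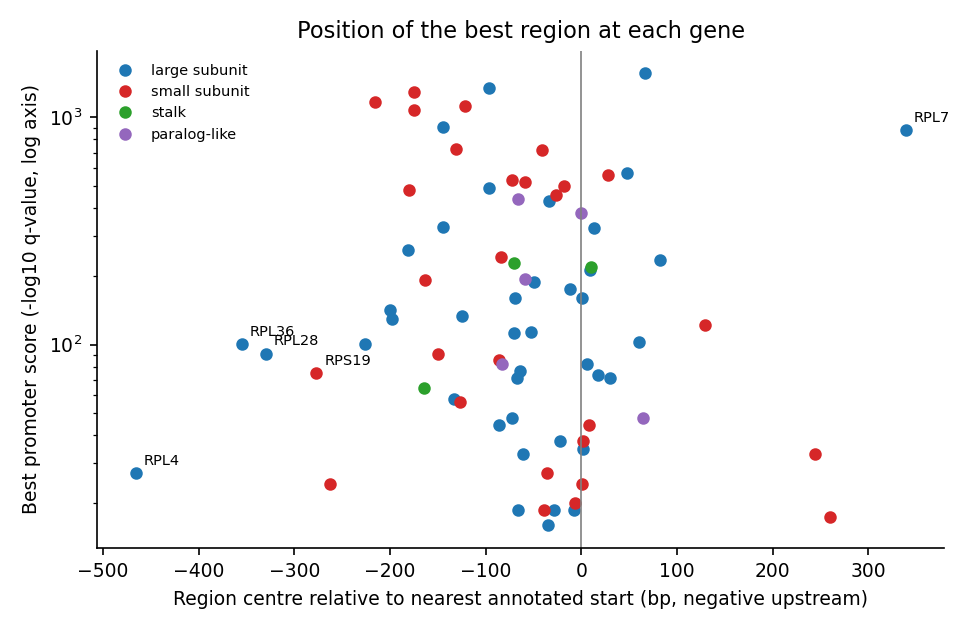
Distance of the centre of the best region to the nearest annotated start (bp along the gene, negative upstream) against its score (−log10 q-value, log axis) for the 77 genes, coloured by subset. Most points lie within 100 bp of the start, and the 5 farthest, at RPL4, RPL36, RPL7, RPL28 and RPS19, are named.

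Some genes had several regions at their promoters. At least 2 promoter regions were listed at 32 of 84 genes (38.1%), beside 24.2% of all protein-coding genes. Among genes with a promoter region these were 32 of 77 ribosomal protein genes and 4855 of 11499 of all genes, so the shares lay close together. In 16 of these 32 genes the regions were summits of 1 called peak, so they are not separate elements. RPL37, RPS29, RPL27A and RPL7 had 4 each. At RPL37 the regions scored 1340.84, 95.02, 85.77 and 16.03 and all 4 belonged to 1 called peak. At RPS29 the scores were 1078.76 and 169.94 in 1 called peak, and 186.57 and 34.68 at other starts of the gene. RPL7 likewise had 1 main region of 875.02 beside others of 80.31, 66.07 and 44.16. RPL15, RPS12, RPSA and RPS13 had 3 each. At RPS12 the regions scored 1293.39, 167.88 and 62.59, and at RPSA 1125.10, 104.43 and 21.43. At RPL37, RPS29, RPL7, RPS12 and RPSA 1 region thus stood well above the others, while the highest at RPL27A, 904.15 and 497.90, lay by different starts. The window of 1 kb took in a region at RPSA at 968 bp from a start (score 21.43) and one at RPL24 at 905 bp (18.68). It left out one at RPS3A at 1143 bp (16.03), one at RPS12 at 1244 bp (93.16) and one at RPL41 at 1381 bp (619.38).

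Counted over the gene record with flanks of 10 kb, the genes held a median of 2 regions, as did all genes, with means of 2.61 and 2.52. With summits of 1 called peak counted once the medians were 2.0 and 1.0. Their records are short, with a median of 5548 bp beside 27256.5 bp for all genes. Per kb of gene and flanks the median was 0.0841 regions, beside 0.0264 for all genes. No region at all was found around 6 genes (7.14%, beside 25.3% of all protein-coding genes). The most regions were at RPL24, with 7, from 4 called peaks. RPSA, RPS29, RPL27A, RPS14, RPL35 and RPS19 had 6 each. RPS14 and RPS19 are known for their loss in 5q- syndrome and their mutation in Diamond-Blackfan anaemia. Across the 77 genes the number of regions around the gene and the best score had a Spearman rho of 0.46, beside 0.19 over all 11499 genes with a promoter region. The points share 1 pool of reads, and the best region itself is among those counted.

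Promoters shared with a neighbour made up a share near that of all genes. In 18 of the 77 genes (23.4%, beside 27.1% of all genes with a promoter region) the best region also lay within 1 kb of a start of another protein-coding gene. After RPL15 with NKIRAS1 and RPL7 with RDH10, the strongest were RPL36A with BTK, the kinase of B cell receptor signalling, RPL35 with ARPC5L, and RPS27A, which encodes a ubiquitin fusion, with CLHC1. Next came RPL18 with SPHK2, RPS25 with TRAPPC4, RPL9 with LIAS, RPL36 with HSD11B1L and MICOS13, RPL35A with IQCG and RPLP2 with PIDD1. The median best score was 100.6 in the 18 shared promoters and 159.7 in the other 59.

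Among the 7 genes without a promoter region were RPL10L, RPL19, RPL23, RPL3L, RPS10 and RPS15. RPL10L, known from testis, and RPL3L, known from heart and skeletal muscle, are paralogs of restricted expression. The region nearest to RPL10L was 766564 bp from its start. RPL3L had one 1970 bp from a start, with a score of 50.72. RPL19, RPL23, RPS10 and RPS15 encode core proteins of the ribosome in every cell, and the nearest region was 15319 bp away for RPL23, 31169 bp for RPL19, 32829 bp for RPS10 and 52336 bp for RPS15.

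These 4 genes lay in stretches without any region that also held starts of other genes. RPS15 stood in a stretch of 222 kb on chromosome 19 that holds a start of 10 other protein-coding genes, among them CIRBP, NDUFS7 and DAZAP1, and of the 10 other genes with a start within 100 kb only 2 had a promoter region, PCSK4 and REEP6. RPL19 and RPL23 stood in stretches of 77.8 and 69.1 kb on chromosome 17, with starts of 4 and 3 other genes. Within 100 kb 1 of 5 other genes around RPL19 had a promoter region, and 3 of 6 around RPL23. The median stretch between neighbouring regions, taken around the canonical starts of all protein-coding genes, was 93.4 kb on chromosome 17, 62.1 kb on chromosome 19 and 46.5 kb on chromosome 6, so those at RPL19 and RPL23 were no longer than usual. RPS10 stood in 134500 bp on chromosome 6 with 1 other gene. Of the genes without a promoter region on the same chromosome, 75.0% had a shorter stretch than RPS15, 53.8% than RPS10, 24.8% than RPL19 and 20.8% than RPL23.

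The authors kept uniquely mapped reads, so repeated sequence was measured as the share of 50-base words, in the 1 kb around the start, that occur more than once in the genome. It was 10.61% at RPS10, 2.1% at RPL3L, 1.47% at both RPL10L and RPS15, and 0 at RPL19 and RPL23. Among genes with a region, RPS29 (score 1078.76), picked here for its value, had 30.36%, and the median of all 84 genes was 0.368%. The part of mapping in the missing regions was not tested.

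Chromosomes 17 and 19, a pair chosen after the values were seen, held 18 of the genes, and 15 of these had a promoter region, with scores between 18.68 and 141.50 and a median of 73.13. On all other chromosomes 62 of 66 had one, with scores between 16.03 and 1561.26 and a median of 190.8. All protein-coding genes differed in the same direction: 46.8% of those on chromosomes 17 and 19 had a promoter region, with a median score of 60.87, and 58.8% of those elsewhere, with a median of 145.5. The list held 0.818 regions per protein-coding gene on this pair and 2.74 elsewhere. Per Mb of sequence it held 16.3 regions on this pair and 17.7 elsewhere, so the list was about as dense there. RPL19, RPL23 and RPS15 lie on these chromosomes. Low values were not limited to the pair: the highest of the genes scored 113.99 on chromosome 16, which has 4 of them, and the single genes on chromosomes 18, 20 and 22 scored 34.68, 18.68 and 76.70. The median of all genes was lower on chromosome 22, at 49.06, than on either 17 or 19. GC content of the kb around the start had a median of 59.6% at the 18 genes and 56.9% at the other 66. With the 77 genes split into 3 bins of GC content, the median score was 202.4 in the lowest bin, 148.9 in the middle and 100.6 in the highest, beside 145.5, 161.7 and 139.5 for all genes in the same bounds. The part of GC content in these differences was not tested.

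**Figure D3:**
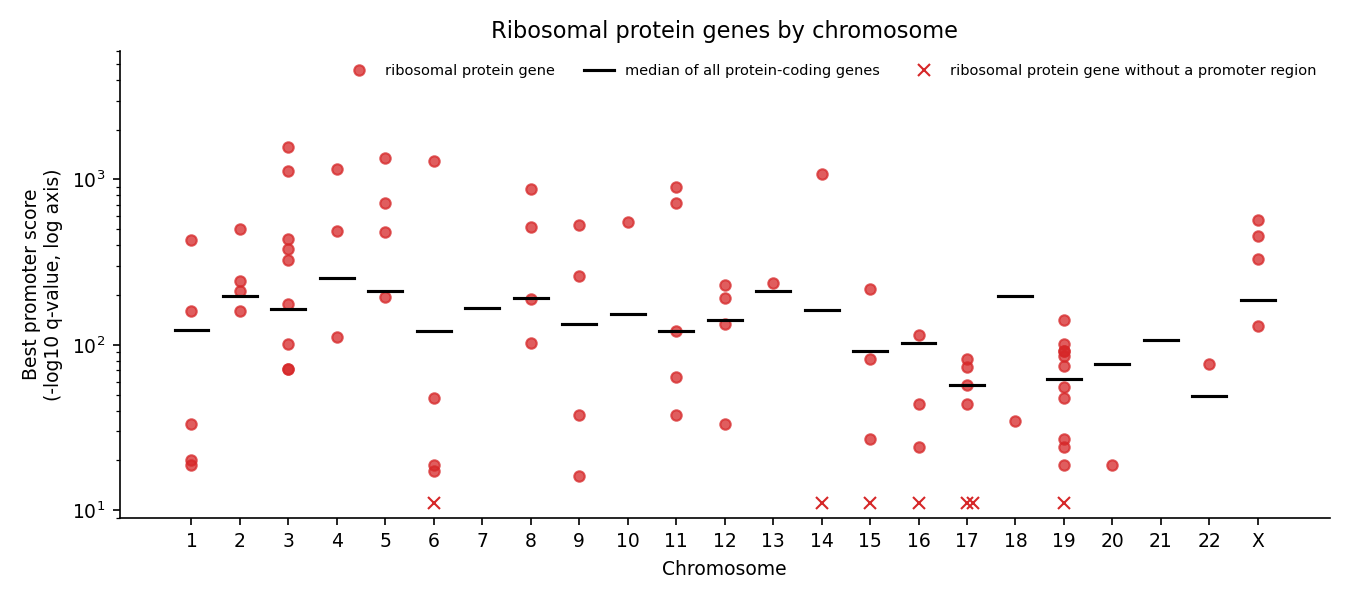
Best promoter score (−log10 q-value, log axis) of each ribosomal protein gene by chromosome (points), genes without a promoter region (crosses, drawn at the bottom at no value), and the median of all protein-coding genes with a promoter region on that chromosome (bars). No point on chromosome 17 or 19 is above 141.50, and the bars are also low there and on chromosome 22.

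Of the sequence motifs searched between 250 bases before and 50 after the canonical start, on both strands, 4 were more frequent at these genes by over 2 times. The ETS core CGGAAG was found at 49 of 84 genes (58.3%, beside 25.5% of all protein-coding promoters) and its longer form CCGGAAGT, which contains that core, at 13 (15.5%, beside 6.18%). The YY1 motif AAGATGGC was found at 11 (13.1%, beside 4.07%). The motif TCTCGCGA, named ZBTB33-like here, was found at 15 (17.9%, beside 1.73%). The SP/KLF motif GGGCGG (59.5%, beside 61.5%), the NFY motif CCAAT (32.1%, beside 36.0%), the E-box CACGTG (7.14%, beside 8.76%) and TATAAA (9.52%, beside 9.65%) were about as frequent as in all promoters. Most ribosomal protein genes had a promoter region, and among all genes with one the shares were 34.8% for CGGAAG, 9.48% for CCGGAAGT, 5.77% for AAGATGGC and 2.67% for TCTCGCGA, so beside these only the YY1 and ZBTB33-like motifs were more frequent by over 2 times. Of those genes 72.8% held GGGCGG and 5.20% held TATAAA, so beside them the ribosomal protein genes held GGGCGG less often and TATAAA more often. The rarer NRF1 motif GCGCATGCG (4.76%, beside 2.72%), CRE TGACGTCA (4.76%, beside 2.68%) and ZNF143-like ACTACAA (5.95%, beside 3.00%) were at 4, 4 and 5 genes. A match is a string of letters, not a measured binding site.

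TCTCGCGA mostly lay within 100 bases before the start, both at these genes and over all genes with the motif. In 12 of the 15 genes (80.0%, beside 63.0% of the 343 genes with the motif) it began between 1 and 100 bases before the start. The sequences below show it in capitals within 30 bases of GRCh37, 5′ to 3′ along the gene, and 10 letters in capitals are overlapping matches on both strands. These genes were chosen by the motif, and their scores differ widely.
RPS6 (chr9:19380267-19380296, minus strand): cttctgctcaTCTCGCGAGAactgaaagcg
RPS19 (chr19:42364266-42364295, plus strand): ctttcggaacTCTCGCGAGAccctacgccc
RPL26 (chr17:8286541-8286570, minus strand): gagacataggTCTCGCGAGAtctttggtaa
RPL17 (chr18:47018881-47018910, minus strand): cggctacgaaTCTCGCGAGAagtcaagttc
RPL12 (chr9:130213721-130213750, minus strand): tgacgacagtTCTCGCGAtagccgcgtttt
RPS28 (chr19:8386310-8386339, plus strand): cggcgtggtaTCGCGAGAcgggagtgggcg
RPL10A (chr6:35436123-35436152, plus strand): caaagcattaTCGCGAGAtcagggccacta
RPL7A (chr9:136215016-136215045, plus strand): cggtatcaacTCTCGCGAtctccgaggccg
RPL27A (chr11:8704305-8704334, plus strand): ggccgataccTCGCGAGActtggcgaaggc
RPS15 (chr19:1438358-1438387, plus strand): atgccggcagTCTCGCGAtaactgcgcagg
The nearest match began 50 bases before the start at RPS6, the substrate of S6 kinase, and 47 before it at RPS19, RPL26 and RPL7A, 45 at RPL10A, 55 at RPL12, 60 at RPS28, 63 at RPL17, 27 at RPS15 and 24 at RPL27A. Of the 15 genes, 14 had a promoter region, with a median best score of 50.80, beside 141.5 for the 63 others with one. Over all protein-coding genes with the motif the median was 237.9. RPS6, named for the motif, scored 532.21 and RPL7A 16.03. At RPL27A the region at the canonical start, where the motif lies, scored 497.90, while its best region, which enters these medians, lay by an internal start.

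**Figure D4:**
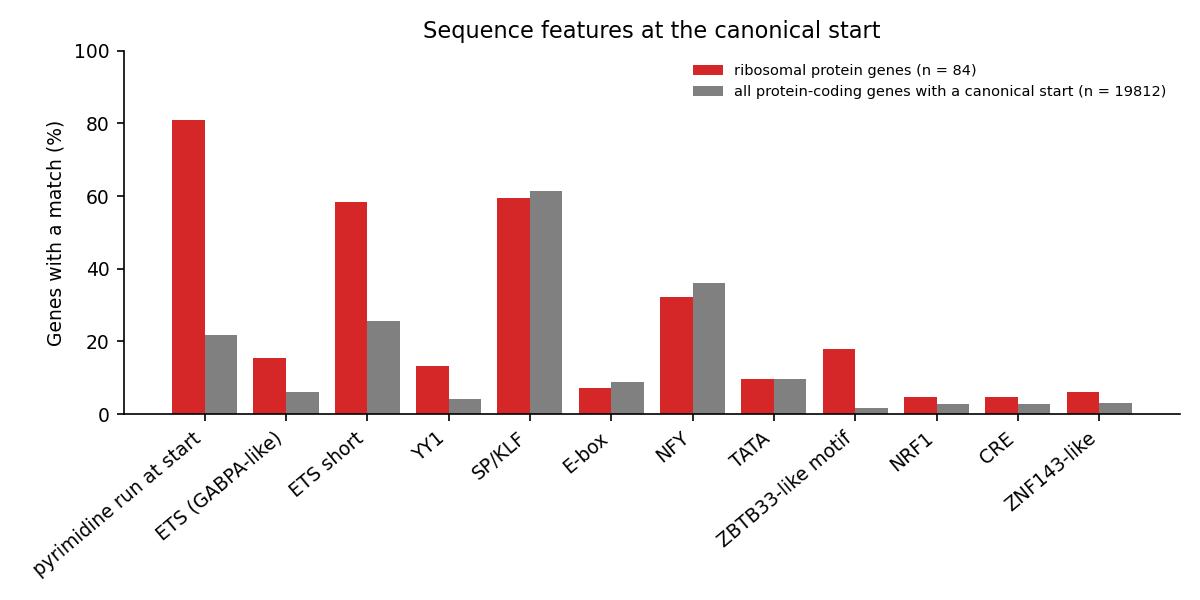
Share of genes (%) with a pyrimidine run at the canonical start and with each motif between 250 bases before and 50 after it, for the 84 ribosomal protein genes (red, left) and all 19812 protein-coding genes with a canonical start (grey, right). The pyrimidine run (81.0% beside 21.8%), the ETS, YY1 and ZBTB33-like motifs stand above the grey bars.

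Small nucleolar RNA genes were found inside 29 of the 84 genes (34.5%, beside 2.11% of all protein-coding genes), 60 in all. A promoter region was found at 28 of these 29, with a median best score of 102.6, and at 49 of the 55 without a snoRNA gene, with a median of 133.5. The 5 genes with 4 snoRNA genes each scored between 16.03 and 44.16, and all 5 lay under the lower quartile of all genes. Among them RPL23A scored 44.16, RPL4 27.15, RPL13A 18.68 and RPL7A 16.03. The 4 genes with 3 snoRNA genes ranged between 34.68 and 1293.39, and the 20 with 1 or 2 had a median of 188.7. Only 9 protein-coding genes in all held 4 or more, the 5 above among them, and the highest of the 9 scored 1054.34.

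Other genes of the translation machinery resembled the ribosomal protein genes in how often they had a promoter region. Mitochondrial ribosomal protein genes had one at 72 of 78 (92.3%, interval 84.0% to 97.1%), with a median best score of 136.6. MRPL50 (1800.3), MRPS9 (1473.1) and MRPL18 (1326.9) were highest, and MRPL10, MRPL21 and MRPL23 had none. Initiation factors had one at 36 of 40 with a median of 172.1, led by EIF3E (2197.7), EIF1AX (1873.1) and EIF3H (1742.3), and EIF3C, EIF3I and EIF4A3 had none. Ribosome biogenesis factors had one at 39 of 40 with a median of 176.2, led by NPM1 (1301.7), DDX10 (1285.0) and WDR12 (888.24), and NOP2 had none. RNA polymerase I genes had one at 12 of 14 with a median of 215.2, led by TAF1D (1054.3), POLR1F (882.95) and POLR1D (302.32), and POLR1H and UBTF had none. Elongation factors had one at 9 of 11, led by EEF1A1 (1352.0), EEF1B2 (1149.7) and EEF1E1 (413.67). EEF1A2, known from neurons and muscle, and EEF2, which moves the ribosome along the messenger RNA, had none. The medians of these lists lay within the quartiles of the ribosomal protein genes.

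**Figure D5:**
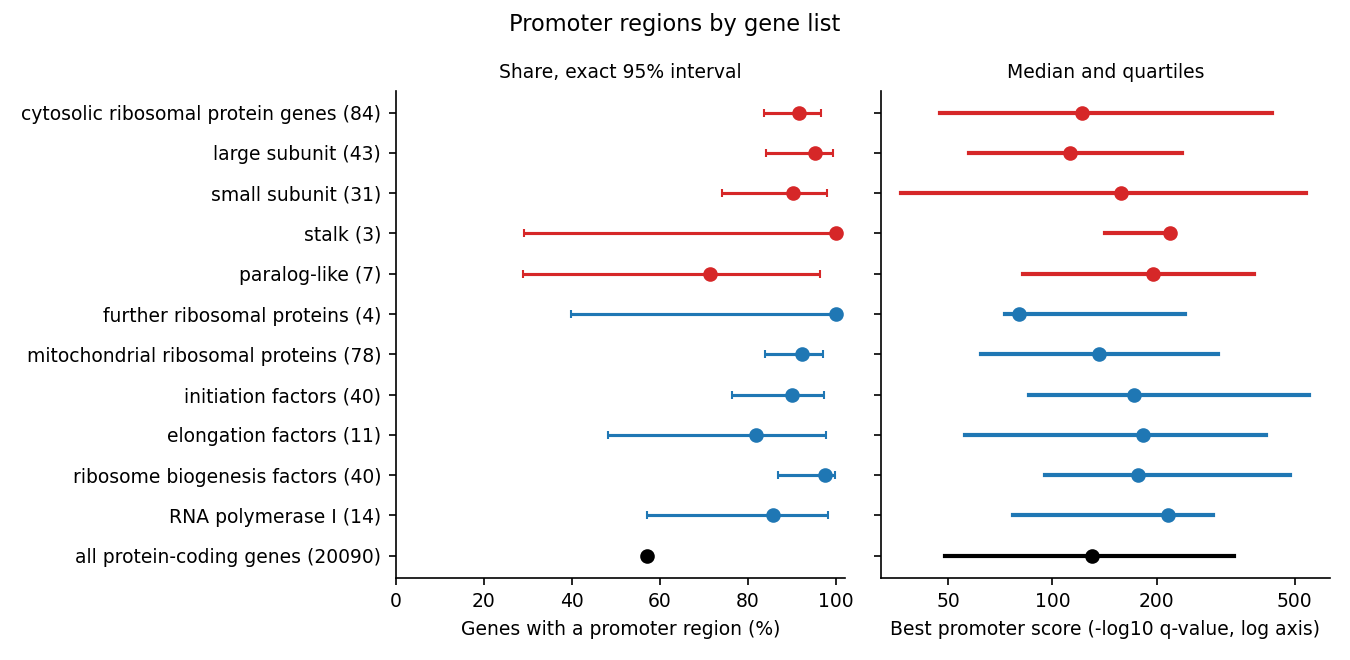
Share of each list that had a promoter region (left, points with exact binomial 95% intervals) and best promoter score of those genes (right, median with quartiles, log axis), for ribosomal protein genes and their subsets (red), related lists (blue) and all protein-coding genes (black), with the number of genes in brackets. The share is 91.7% for ribosomal protein genes and 57.2% for all genes, while the medians are 121.7 and 129.6.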

How the data were processed

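ATAC-seq was measured in 191 GM12878 libraries of 1 group. The authors' methods state that read pairs were trimmed, mapped to hg19 with Bowtie2 2.1.0 and filtered for uniquely mapped reads of good quality, without duplicates (Picard 1.79) or mitochondrial reads. Summits were then called on the pooled cells with MACS2, and the 50000 of lowest q-value were kept. The deposited score is the −log10 of the q-value. It ranks regions within the list and gives no read depth.

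Coordinates are hg19, 1-based. Genes and starts came from GENCODE 44 mapped to that build, and sequence from GRCh37. Sequences are printed only for genes that the RefSeq promoter table (GRCh38) also holds, which is 67 of the 84. Genes were counted by the distance of region centres to starts, with exact binomial 95% intervals. The placement of regions and the repeated-word count were tested on simulated data. With 1 pooled list no test between groups was possible.

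Members, lists, motifs and rules were chosen with earlier results of these data known. Genes were named by rule: those without a region, the 10 highest and 5 lowest scores with ties, the 5 farthest regions, those with most regions, all paralog-like genes, up to 12 with shared promoters, and in each related list the 3 highest and up to 3 without a region. Names given with the motifs, the pyrimidine runs and the snoRNA genes outside this rule, and the stalk genes, were picked with their values in view. A few genes covered by the rule are not reported here. Alternative settings varied the window, the starts, the score minimum and the flank. Scripts ran in Python 3.11.15 with pandas 2.3.3, numpy 2.4.6, numba 0.67.0, and for intervals scipy 1.17.1. Plots were drawn in matplotlib 3.10.9.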

Additional observations from a re-analysis of the deposited data

How the results depend on the processing

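The number of ribosomal protein genes with a promoter region was 77 with a window of 500 bp, with starts of protein-coding transcripts only and with the canonical start only, 78 with 2.5 kb, 76 without regions at the lowest score, 73 with the outermost start only, 72 where the region had to cover the start base and 66 with regions at or above the median score. It stayed above the share of all genes under each of these. The median best score ranged between 112.1 and 167.9. The median distance was 97 bp with the outermost start only, and 90.0 bp with the canonical start only, an alternative chosen after seeing the data. The median number of regions was 1.0 in the gene record alone, 4.0 with 50 kb on each side and 1.0 with regions at or above the median score. The pyrimidine run was found at 76 genes within 10 bases of the start, beside 33.6% of all genes, and at 59 at the start base, beside 4.60%. With summits of 1 called peak counted once the median number of regions stayed at 2.0 for ribosomal protein genes and was 1.0 for all genes. No paired analysis was possible because all libraries form 1 group with 1 pooled list, and no library could be left out. The methods do not say whether libraries that failed the authors' quality filter entered that list. A gene without a listed region may be accessible below the cut of the list, since depth is unknown.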
